A study of Mus musculus with 16 samples.

Results

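The nuclei described here came from the mouse dentate gyrus (DG) and carried 3 or more RNA UMIs (unique molecular identifiers, 1 per captured transcript) summed over *Gja1*, *Plpp3*, *Gpc5*, *Rgs20*, *Slco1c1*, *Slc39a12* and *Rorb*, 7 genes of astrocytes and radial glia. They also carried at most 1 UMI summed over *Gad2*, *Pdgfra*, *Mog*, *Inpp5d* and *Prox1*, which mark GABAergic neurons, oligodendrocyte precursors, oligodendrocytes, microglia and granule cells (GCs). They are called marker nuclei below and numbered 1564 of 17015 nuclei. They were chosen by these RNA counts, so the levels of the 7 genes in them are not a result.

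The RNA and the accessible chromatin (ATAC) of the same nuclei had been read with the 10x Multiome assay from fresh-frozen, microdissected DG, 1 library pair per mouse. The groups were 4 wild-type mice (WT, genotype VV) and 4 mice with the V321L form of *Nrg1* on both alleles (V321L, genotype LL), each with 2 females and 2 males. V321L replaces a valine of the transmembrane segment of neuregulin 1 and impairs the cleavage that releases its intracellular domain, in all cells of the animal. The methods of the study give an age range for all its mice, from young to adult, but not the age of those sequenced. No agent was given to either group. A WT mouse gave between 81 and 350 marker nuclei and a V321L mouse between 107 and 281. Of 16843 nucleus barcodes, 171 occurred in more than 1 library.

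Astrocytes take up glutamate and potassium released by neurons, move water, make the cholesterol and lipoproteins that neurons import, and couple to each other through gap junctions. The radial glia of the subgranular zone are the neural stem cells of the adult DG and share most of their transcripts with astrocytes, so that few genes tell them apart. Neuregulins bind ErbB receptor tyrosine kinases and can be cleaved by ADAM and BACE proteases and then by gamma-secretase, whose subunits also cleave Notch receptors.

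The libraries differed between the genotypes before any cell class was considered, and these values stand beside every genotype difference below. The median nucleus held 1630 ± 389 UMIs (SD, n = 4) in WT and 3466 ± 740 UMIs in V321L mice. In marker nuclei the medians were 1318 ± 237 and 1724 ± 277 UMIs and overlapped. Mitochondrially encoded UMIs made up a median of 0.189% ± 0.0734 of a marker nucleus in WT mice against 1.01% ± 0.312 in V321L mice, with no overlap. Free RNA was taken to be like the barcodes of up to 100 UMIs, and was scaled as if all UMIs of oligodendrocyte, microglial and vascular genes were free. It made up from 17.7% to 25.8% of the RNA of WT marker nuclei and from 12.2% to 27.2% of that of V321L ones. Nuclei with a doublet score above the library mean + 2 SD made up 10.9% ± 2.67 of the marker nuclei in WT and 4.73% ± 1.31 in V321L mice, with no overlap, while among all nuclei they made up 3.85% ± 0.504 and 3.74% ± 0.858. Without these nuclei marker nuclei had a share of 7.21% ± 2.44 in WT against 10.4% ± 2.62 in V321L mice (two-sided exact test, p = 0.143), and 1665 genes were higher and 1328 lower in V321L marker nuclei, against 1760 and 1689 with them.

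The label of astrocytes and radial glia held for the marker nuclei with many marker UMIs, less so in WT mouse M1, and not for those near the threshold. It was checked with 25 astrocyte genes outside the rule, among them *Aqp4* (the water channel of astrocyte endfeet) and *Slc1a2* and *Slc1a3* (glutamate transporters). In nuclei with 10 or more marker UMIs these genes summed to 14771 ± 4785 CPM (UMIs per 1000000, n = 4) in WT and 23969 ± 3342 CPM in V321L mice. In nuclei with 5 to 9 marker UMIs they summed to 5125 ± 983 and 3002 ± 1162 CPM. In nuclei with 3 or 4 they summed to 2546 ± 620 and 1605 ± 314 CPM, against 2348 ± 197 and 1594 ± 102 CPM in all nuclei outside the rule. A list of 12 pan-neuronal genes, among them *Syt1* and *Snap25*, ran the other way. It summed to 7342 ± 2676 CPM in WT and 2480 ± 1337 CPM in V321L nuclei with 10 or more marker UMIs, and to 13615 ± 1282 and 15790 ± 2393 CPM in those with 3 or 4. Of the nuclei with 3 or 4 marker UMIs, 52.4% ± 13.1 in WT and 34.6% ± 8.02 in V321L mice had them from *Gpc5* alone, a glypican gene that spans 1433 kb. Nuclei just inside the threshold, with 3 marker UMIs, had 2772 CPM of the astrocyte list in WT and 1707 CPM in V321L mice, and nuclei just outside it, with 2, had 2082 and 1673 CPM.

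**Figure D1:**
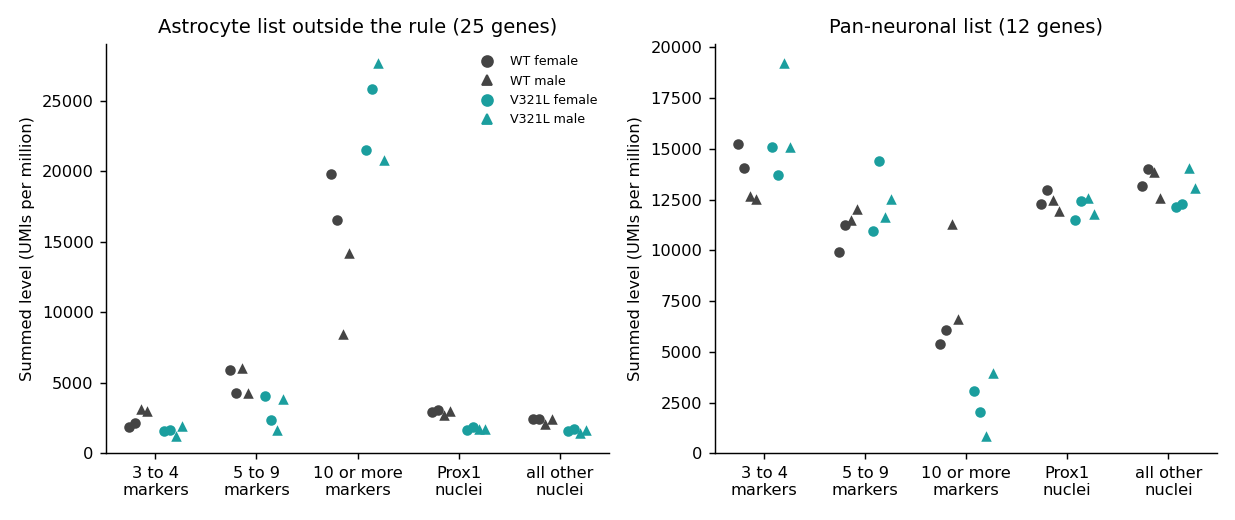
Summed levels of the astrocyte list outside the rule and of the pan-neuronal list (CPM) in nuclei with 3 to 4, 5 to 9 and 10 or more marker UMIs, in *Prox1* nuclei and in all other nuclei, 1 point per mouse. The astrocyte list is highest in nuclei with 10 or more marker UMIs, at 14771 CPM in WT and 23969 CPM in V321L mice on average, and the neuronal list is lowest there.

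Nuclei with 10 or more marker UMIs made up 62.9%, 59.7%, 28.4% and 53.6% of the marker nuclei of WT mice F1, F2, M1 and M2. In V321L mice the share lay between 62.1% and 77.9%. WT mouse M1 stood apart, with 23 such nuclei among its 81 and a pan-neuronal sum of 11896 CPM over its marker nuclei, against 9307 to 9685 CPM in the other WT mice. The limit of 10 marker UMIs did not remove this: the 23 nuclei had a pan-neuronal sum of 11283 CPM, against 5392 to 6629 CPM in such nuclei of the other WT mice, and an astrocyte sum of 8489 CPM. Several results on marker nuclei are given also for nuclei with 10 or more marker UMIs, which was added after seeing the data, or without WT mouse M1.

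For comparison, 1783 *Prox1* nuclei were taken from the same libraries (2 or more *Prox1* UMIs, none of the other 4 excluded genes and at most 1 marker UMI). The RNA of both classes was used to choose them, so their RNA levels are a description. *Slc1a2* averaged 2953 ± 791 CPM over the 8 mice in marker nuclei and 153 ± 17.5 CPM in *Prox1* nuclei. *Bmpr1b*, a BMP receptor, averaged 317 ± 73.2 and 0.526 ± 0.915 CPM. *Sox9*, a glial transcription factor, averaged 87.7 ± 25.2 CPM in marker nuclei, with 49.6 CPM in the lowest mouse, and reached no more than 8.52 CPM in the *Prox1* nuclei of any mouse. Radial glia genes were sparse: *Id4* averaged 137 ± 79.3 CPM, *Hopx* 64.9 ± 54.0 CPM and *Thrsp* 52.2 ± 42.2 CPM in marker nuclei. Over the marker nuclei of all 8 libraries *Nes* had 1 UMI and *Vnn1* none. Sex-linked genes matched the labelled sex in every library: *Xist* stood between 868 and 3338 CPM in the 4 female and at 7.09 CPM or below in the 4 male libraries.

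The accessibility of gene starts, which the rule did not use beyond its total, gave a test of the difference between the classes. ATAC counts in peaks within 1 kb of each gene start were summed per mouse and class and compared within mice. Gene starts without a called peak in every library were left out, which limited the windows of each list that could be tested. Of 11120 windows, 1286 (11.6%) were more and 1233 (11.1%) less accessible in marker than in *Prox1* nuclei at an adjusted p under 0.05. All 6 windows of the astrocyte list that could be tested were more accessible. Their median on the log2 scale was 1.53, and that of all windows -0.01. *F3*, the gene of tissue factor and a surface marker of astrocytes, had the largest of them, at 115 CPM in marker and 15.1 CPM in *Prox1* nuclei (log2 fold change 2.98 ± 0.25 SE). Of 9 windows of astrocyte and stem cell transcription factors, 7 were more accessible and none less (median 0.93). Among them were *Id3* (3.88 ± 0.32), *Gli2* (2.14 ± 0.27) and *Id4* (1.68 ± 0.16), inhibitors of basic helix-loop-helix factors and an effector of hedgehog signalling. *Nfib* was at 0.66 ± 0.14.

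Of 24 windows of cholesterol and lipid genes, 11 were more accessible and none less (median 0.35), led by *Abca1* (1.40 ± 0.20), the lipid exporter that loads apolipoprotein E, and *Fads2* (1.17 ± 0.15), a fatty acid desaturase. The windows of neuronal genes were on the other side. All 4 pan-neuronal windows were less accessible in marker nuclei (median -1.24), as were 5 of 10 GC windows and none more (median -0.87). *C1ql2*, a synaptic organiser of GC mossy fibres, was at -1.77 ± 0.27 and *Calb1*, the calcium buffer calbindin, at -1.52 ± 0.25. Cell cycle genes did not differ detectably: *Mki67* was at 0.03 ± 0.28 and *Top2a* at -0.02 ± 0.17. The summed ATAC level of the astrocyte windows was 242 ± 74.1 CPM in nuclei with 3 or 4 marker UMIs, 561 ± 109 in those with 10 or more and 143 ± 30.8 in *Prox1* nuclei (n = 8 mice), so the mean accessibility near the threshold lay between those of the other sets.

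The windows with the largest differences were those of *Epas1*, *Zfp36l2*, *Cmtm5*, *Snx8*, *Sash1*, *Pdk4*, *Ccdc102a* and *Id3*, with log2 fold changes from 3.88 to 4.62, each more accessible in marker nuclei in 8 of 8 mice. *Epas1* encodes the hypoxia-inducible factor HIF-2 alpha, *Pdk4* a kinase that turns off pyruvate dehydrogenase, *Sash1* a scaffold protein and *Cmtm5* a small membrane protein. On the other side, *Bcl11b*, a zinc finger factor of neurons, fell by 2.27 on the log2 scale, from 78.4 ± 29.5 CPM in *Prox1* to 18.4 ± 19 CPM in marker nuclei, lower in 8 of 8 mice. The promoters of *Cmtm5* and *Sash1* are shown because their windows were among the most selective for marker nuclei. Each runs from 250 bases before to 50 bases after the gene start in RefSeq (GRCm38.p6), and capitals mark CG pairs.
Cmtm5 promoter, chr14:54936247-54936546, + strand: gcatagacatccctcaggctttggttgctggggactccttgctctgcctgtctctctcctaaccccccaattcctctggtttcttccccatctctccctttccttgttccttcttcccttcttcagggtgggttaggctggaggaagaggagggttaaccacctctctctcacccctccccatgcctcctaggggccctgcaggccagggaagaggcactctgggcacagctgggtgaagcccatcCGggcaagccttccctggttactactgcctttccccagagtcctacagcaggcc
Sash1 promoter, chr10:8886021-8886320, - strand: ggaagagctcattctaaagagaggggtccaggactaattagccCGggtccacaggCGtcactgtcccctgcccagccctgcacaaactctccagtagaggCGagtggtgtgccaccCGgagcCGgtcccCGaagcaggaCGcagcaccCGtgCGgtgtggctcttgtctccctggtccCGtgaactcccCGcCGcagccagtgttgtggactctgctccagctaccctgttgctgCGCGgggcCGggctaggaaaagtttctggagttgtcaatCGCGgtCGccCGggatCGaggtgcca
The *Cmtm5* window held 85.2 ± 35.1 CPM of ATAC counts in marker nuclei and 5.61 ± 5.69 CPM in *Prox1* nuclei, with 1 CG pair and 59% G+C in its promoter. The *Sash1* window held 97.6 ± 26.1 and 5.57 ± 3.25 CPM, with 20 CG pairs and 63.7% G+C. Over 20262 mouse promoters of this length the median was 11 CG pairs and 55.3% G+C. On both strands, neither promoter held TTGGC (a nuclear factor I half-site, in 48.1% of all promoters), the whole site of TTGGC and GCCAA with 5 bases between them (in 0.0296%) or ACAAT (a SOX core, in 29.1%). The letters TTGGC are part of the whole site.

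The first question of the comparison of genotypes was whether V321L mice held another share of these nuclei. Marker nuclei made up 8.23%, 9.30%, 4.09% and 9.28% of the nuclei of WT mice F1, F2, M1 and M2 and 13.6%, 10.3%, 7.06% and 11.1% of those of V321L mice F1, F2, M1 and M2. The groups overlapped: V321L mouse M1 was below 3 of the WT mice. The means were 7.73% ± 2.48 and 10.5% ± 2.71 (SD, n = 4; two-sided exact permutation test, p = 0.229, smallest possible 0.0286). Since deeper nuclei reach 3 marker UMIs more easily, every nucleus was also thinned to 500 UMIs before the rule was applied. The share was then 5.26% ± 2.31 in WT and 7.95% ± 2.15 in V321L mice (exact p = 0.143). Thinning to 1000 UMIs left out shallower nuclei, and kept 1450, 2679, 1165 and 1734 nuclei of WT mice F1, F2, M1 and M2 of 1834, 3762, 1981 and 2253, against 1800, 1907, 1397 and 1407 nuclei of V321L mice of 2062, 2019, 1515 and 1589. Over this other set of nuclei the share was 4.78% ± 1.44 and 9.01% ± 2.52 with no overlap (exact p = 0.0286). The groups nearly touched: WT mouse F2 was at 5.75% (154 nuclei) and V321L mouse M1 at 5.80% (81 nuclei). Nuclei with 10 or more marker UMIs made up 4.22% ± 2.05 and 7.39% ± 2.19 (exact p = 0.114). Without V321L mouse M1 the difference of 2.81 percentage points became 3.96 (exact p = 0.0286), the smallest p that 7 mice allow. It was 1.60 without WT mouse M1 (exact p = 0.4) and 1.78 without V321L mouse F1 (exact p = 0.429).

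**Figure D2:**
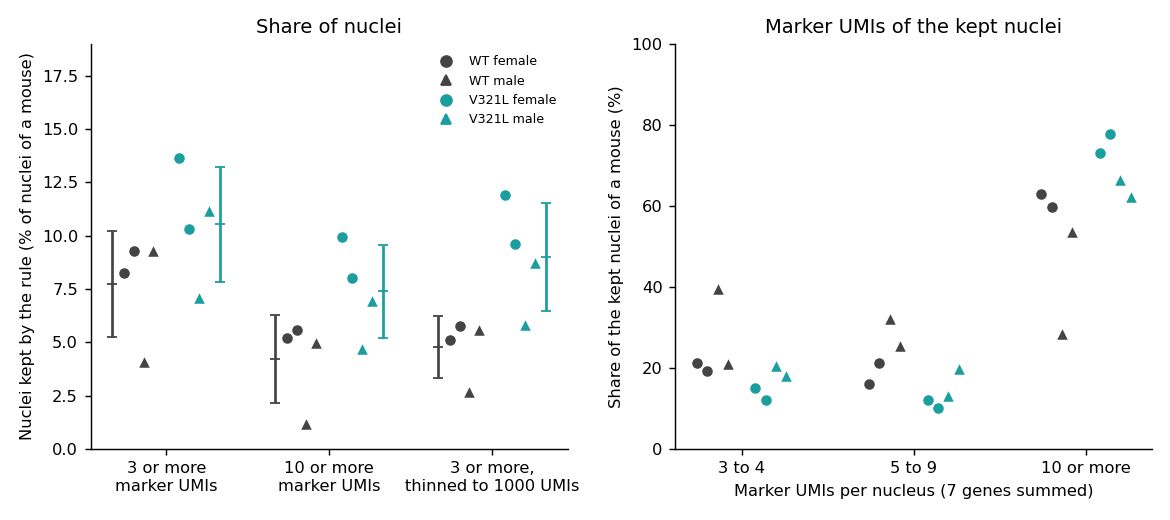
Left, share of each mouse's nuclei kept by the rule, with 10 or more marker UMIs, and with 3 or more after thinning to 1000 UMIs, 1 point per mouse; right, makeup of the kept nuclei of each mouse by marker UMIs. The WT and V321L points overlap for 3 or more and for 10 or more marker UMIs. After thinning they do not overlap but nearly touch. WT mouse M1 has the lowest share with 10 or more, 28.4%.

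Radial glia UMIs were detected more often in marker nuclei of V321L mice. With each nucleus thinned to 500 UMIs, 13.6% ± 3.87 of WT and 21.7% ± 2.62 of V321L marker nuclei had at least 1 UMI over 10 radial glia genes, among them *Hopx*, *Thrsp*, *Tfap2c*, *Riiad1*, *Lpar1*, *Notch2* and *Sox4*, with no overlap (exact p = 0.0286). Without thinning the shares were 29.5% ± 7.17 and 50.6% ± 5.28. *Prox1* nuclei moved the same way, from 3.02% ± 0.875 to 5.56% ± 0.971 at 500 UMIs (exact p = 0.0286). They do not lack every gene of the list: without thinning *Notch2* had a UMI in 10.4% ± 6.39 of WT and 15.5% ± 5.22 of V321L *Prox1* nuclei. The median depth before thinning was 1318 and 1724 UMIs in marker nuclei and 2723 and 4571 UMIs in *Prox1* nuclei. The excess of marker over *Prox1* nuclei was 10.5 ± 3.70 percentage points in WT and 16.1 ± 3.01 in V321L mice, a difference of 5.60 that did not pass the test (exact p = 0.0857). Without WT mouse M1 the difference in marker nuclei was 6.50 points and without V321L mouse F1 7.31 points, both with an exact p of 0.0571.

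The single genes did not move alike in this count. Of the radial glia list only *Hopx* and *Notch2* were counted singly, and how much of the list's rise came from *Hopx* was not tested. *Hopx*, a homeodomain protein of quiescent stem cells and mature astrocytes, was found at 500 UMIs in 1.14% ± 0.837 of the WT and in 7.97% ± 0.715 of the V321L marker nuclei (exact p = 0.0286), and in none of the thinned WT and 0.958% ± 0.592 of the V321L *Prox1* nuclei. *Aqp4* was detected in 7.78% ± 3.55 and 16.7% ± 1.81 (exact p = 0.0286), with 0.0833% and 0.213% in *Prox1* nuclei. *Notch2*, the Notch receptor of the list, was detected in 9.73% ± 3.57 and 7.32% ± 1.86, which overlapped (exact p = 0.314). *Slc1a2* was detected in 57.4% ± 8.82 and 66.8% ± 3.42, also with overlap (exact p = 0.114). *Syt1*, the calcium sensor of synaptic vesicles, had a UMI in 39.4% ± 12.8 of the WT but 18.9% ± 3.71 of the V321L marker nuclei, with no overlap (exact p = 0.0286), and in 76.8% ± 2.52 and 70.2% ± 5.59 of *Prox1* nuclei. Fewer nuclei with a transcript and less transcript per nucleus cannot be told apart in these shares or in the sums below. Over the 13 genes compared at 500 UMIs, a Benjamini-Hochberg adjustment took the smallest exact p to 0.0531, so none passed at 0.05.

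The RNA of marker nuclei was then summed per mouse and compared between the genotypes over all genes with edgeR's quasi-likelihood test. Of 6829 genes tested, 1760 (25.8%) were higher and 1689 (24.7%) lower in V321L mice at a Benjamini-Hochberg adjusted p under 0.05 (50.5% in all), and 2848 (41.7%) did not overlap between the genotypes. Over all genes the median difference was -0.02 on the log2 scale. With library sizes in place of TMM scaling it was 0.34, a shift of 0.36, and 2466 genes were higher and 931 lower, so that a list's median near 0 has no fixed sign. Levels below are CPM on the TMM-scaled library size unless they are called sums, and fold changes are V321L over WT on the log2 scale, with their SE. Several lists hold genes in common. Beside the most abundant genes of each list, genes were named after their values were seen.

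Of the astrocyte list, 24 of 25 genes were tested, 13 were higher and 3 lower (median 1.01). *Apoe*, the apolipoprotein by which astrocytes export lipid, stood at 561, 304, 375 and 315 CPM in WT mice F1, F2, M1 and M2 and at 5305, 5495, 3149 and 3879 CPM in V321L mice F1, F2, M1 and M2. Every V321L mouse was above every WT mouse, and the difference was 3.53 ± 0.25 (adjusted p = 1.2e-07). *Cldn10*, a claudin of astrocytes, stood at 43.1, 35.3, 32.6 and 34 CPM in WT and at 464, 647, 398 and 461 CPM in V321L mice. This was a rise in every V321L mouse over every WT mouse, of 3.76 ± 0.23 (adjusted p = 1.9e-08). *Aqp4* was at 145 and 281 CPM on average (0.88 ± 0.24, adjusted p = 0.0061). *Mfge8*, a secreted bridge for phagocytosis, rose by 2.88 ± 0.30, *Ntsr2*, a neurotensin receptor, by 2.86 ± 0.26 and *Fgfr3*, a fibroblast growth factor receptor, by 1.99 ± 0.31.

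The glutamate transporters were not called over all marker nuclei. *Slc1a2* stood at 4143, 3600, 1899 and 2660 CPM in WT and at 3086, 3991, 3412 and 2586 CPM in V321L mice. The mice of both groups were interleaved, and the difference was 0.08 ± 0.23 (adjusted p = 0.78). *Slc1a3* differed by 0.42 ± 0.25 (adjusted p = 0.18), and in nuclei with 10 or more marker UMIs it was higher (0.73 ± 0.25, adjusted p = 0.025). *Sox9* differed by -0.07 ± 0.25 (adjusted p = 0.83) and *Bmpr1b* by -0.12 ± 0.21 (adjusted p = 0.66). The 3 genes of the list that were lower were *Nfia*, a nuclear factor I gene needed for astrocyte fate (2023 and 1090 CPM, -0.90 ± 0.20, adjusted p = 0.0013), *Slc4a4*, the sodium bicarbonate cotransporter (1426 and 788 CPM, -0.86 ± 0.18), and *Gli3* (-0.80 ± 0.23), which was not called with 10 or more marker UMIs (-0.51 ± 0.24, adjusted p = 0.088).

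**Figure D3:**
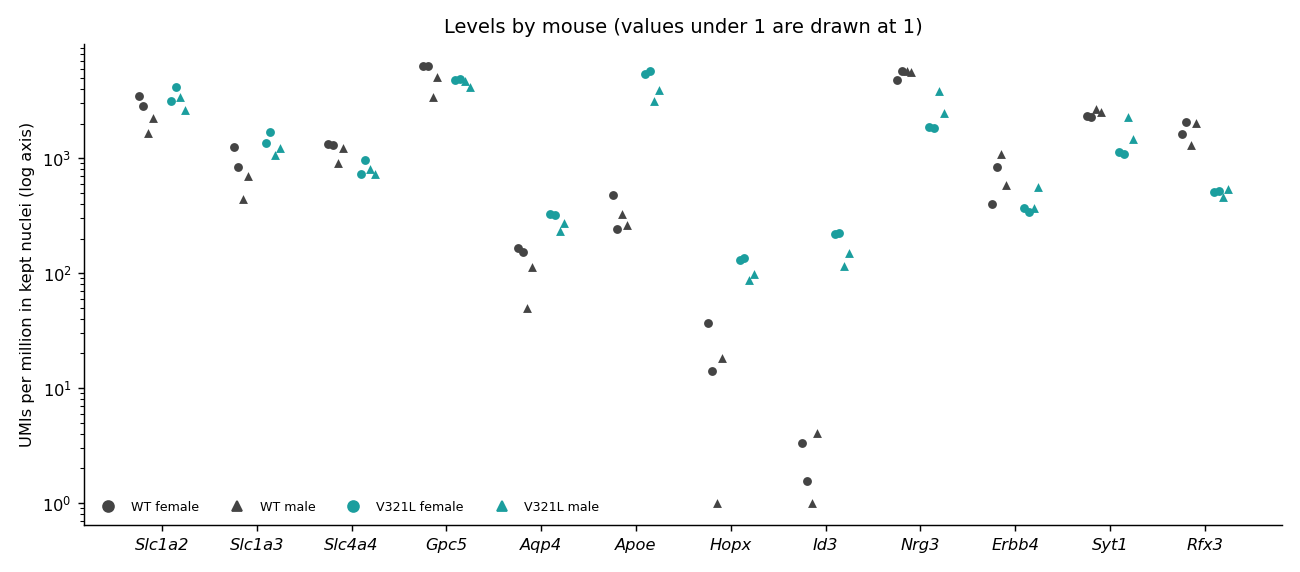
CPM in the marker nuclei of each mouse for selected genes (log axis, values under 1 drawn at 1), 1 point per mouse, WT and V321L side by side. For *Apoe* the 4 V321L mice lie above the 4 WT mice, whereas the points for *Slc1a2* are interleaved.

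The same list in nuclei with 10 or more marker UMIs gave 14 of 23 genes higher and none lower (median 1.28, against 0.02 over all 3994 genes tested there, of which 1056 were higher and 919 lower). *Apoe* was then at 3.87 ± 0.26 and *Aqp4* at 1.28 ± 0.22, while *Slc4a4* (-0.36 ± 0.22, adjusted p = 0.2) and *Nfia* (-0.44 ± 0.24, adjusted p = 0.13) were no longer called. Without WT mouse M1, 14 of 25 genes were higher and 4 lower (median 1.0), against 2163 higher and 1989 lower of all 7940 genes tested there. In nuclei with a mitochondrial share under 0.5%, 8 of 20 were higher and 3 lower (median 0.31), against 666 higher and 479 lower of all 3631 genes tested there. This limit kept 126, 257, 52 and 157 marker nuclei of WT mice F1, F2, M1 and M2 but 35, 76, 42 and 18 of V321L mice, so its counts rest on few V321L nuclei here and below. Subtracting free RNA gave 13 of 23 higher and 3 lower (median 1.31), against 1139 higher and 949 lower of all 5260 genes tested there. In *Prox1* nuclei of the same libraries only 8 of the list's genes had counts enough to be tested, of which 2 were higher and 4 lower (median -0.36, against 0.13 over all genes, of which 34.4% were higher and 26.2% lower, 60.6% in all).

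Of 26 radial glia and stem cell genes, 9 were tested, 7 were higher and 1 lower (median 1.89). The filter on low counts left out the other 17, and several that passed it had few counts outside V321L mice, so it set part of this balance. *Hopx* stood at 43.1, 17.6, 0.00 and 21.8 CPM in WT and at 127, 128, 87.4 and 97.3 CPM in V321L mice, without overlap (2.30 ± 0.35, adjusted p = 5.0e-05). *Sox2*, a stem cell and astrocyte transcription factor, was at 31.4, 23.5, 8.15 and 14.6 CPM in WT and at 77.7, 86.7, 80.4 and 89.6 CPM in V321L mice. The groups were apart, by 2.00 ± 0.29 (adjusted p = 3.6e-05). *Gfap*, the intermediate filament of astrocytes and radial glia, rose by 2.08 ± 0.32 from 16 to 70.4 CPM, *Thrsp*, a lipogenic gene of adult stem cells, by 1.89 ± 0.33 and *Padi2*, a peptidyl arginine deiminase, by 1.69 ± 0.40. *Id3* had 4 UMIs over the 4 WT mice and 339 over the 4 V321L mice. *Notch2* was the 1 gene that was lower (-0.86 ± 0.24, adjusted p = 0.0072), with overlap, and in nuclei with 10 or more marker UMIs it was not called (-0.52 ± 0.25). At 1000 UMIs the sign of *Notch2* turned (0.16). In nuclei with 10 or more marker UMIs 8 of 9 genes were higher and none lower. With a mitochondrial share under 0.5%, 2 genes of the list were tested, none was higher and 1 was lower.

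Of 35 reactive astrocyte genes only 4 had counts enough for the test. *Gfap* and *H2-K1*, a class I histocompatibility gene, were higher and *Fkbp5*, a glucocorticoid target, lower (-0.99 ± 0.31). With library sizes 2 of the 4 were higher and none lower, and with free RNA subtracted 1 of 3 was higher and none lower. Without WT mouse M1, 8 could be tested, of which 5 were higher and 1 lower, against 2163 and 1989 of all 7940 genes. *C3* and *Lcn2*, genes by which reactive astrocytes are often defined, had no UMI in the marker nuclei of any library.

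Of 23 cholesterol and lipid genes tested of 30, 17 were higher and none lower (median 1.17), and the list summed to 1795 ± 431 CPM in WT and 9287 ± 1909 CPM in V321L mice, of which *Apoe* was the largest part. *Clu*, the lipoprotein clusterin, rose by 2.42 ± 0.28. Among enzymes of cholesterol synthesis, *Msmo1* stood at 78.4, 72.5, 16.3 and 63.1 CPM in WT and at 269, 297, 287 and 213 CPM in V321L mice. The V321L mice were all higher, by 2.07 ± 0.25 (adjusted p = 5.9e-06). *Sqle* rose by 1.5 ± 0.35, *Fdft1* by 1.12 ± 0.26 and *Cyp51* by 1.11 ± 0.26. The regulators *Srebf1* and *Srebf2* rose by 2.36 ± 0.40 and 1.18 ± 0.24. *Hmgcs1* was at 0.43 ± 0.27 and *Abca1* at -0.35 ± 0.30. Under a 0.5% mitochondrial share 5 of 11 genes tested were higher (median 0.99). In *Prox1* nuclei 7 of 14 genes of the list were higher and none lower (median 0.79).

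Of 18 genes for potassium, water, ion transport and gap junctions, 12 were higher and 2 lower (median 1.01). *Gjb6*, connexin 30, rose by 2.11 ± 0.29, *Mlc1* and *Hepacam*, partners in astrocyte junctions and volume regulation, by 2.33 ± 0.28 and 2.21 ± 0.27, and *Kcnk2*, a two-pore potassium channel, by 1.67 ± 0.21. *Slc12a2*, the chloride importer NKCC1, was lower (-1.63 ± 0.29). Of 15 genes of glutamate uptake and the glutamine cycle, 5 were higher and 4 lower (median 0.38). At 1000 UMIs 7 of 12 were higher and 3 lower (median 1.08), against 818 higher and 625 lower of all 3049 genes tested there. Under a 0.5% mitochondrial share 1 of 10 was higher and 2 were lower (median -0.06). *Glul*, glutamine synthetase, rose by 1.30 ± 0.27 and *Slc38a3*, a glutamine exporter, by 1.71 ± 0.32, while *Grm5*, *Gria1*, *Gria2* and *Grik2*, all glutamate receptor subunits or receptors, were lower, by up to 2.00 for *Grik2*. *Gria2* was not called with 10 or more marker UMIs (-0.42 ± 0.20, adjusted p = 0.084). Of 10 genes for GABA uptake and receptors, 1 was higher and 4 lower (median -0.36 with TMM scaling and -0.00 with library sizes), and the transporter *Slc6a11* (0.39 ± 0.20, adjusted p = 0.11) was not called, though it was higher with 10 or more marker UMIs (0.68 ± 0.23, adjusted p = 0.019). With 10 or more marker UMIs 3 of the 10 were higher and 2 lower (median -0.13). The balance turned with library sizes, with 4 higher and 2 lower. It also turned at 1000 UMIs, where 4 of 8 were higher and 2 lower (median 0.44).

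Of 24 secreted, matrix and synapse-contact genes, 8 were higher and 7 lower (median -0.04 with TMM scaling and 0.32 with library sizes). With library sizes 10 were higher and 4 lower, and at 1000 UMIs 9 of 20 were higher and 4 lower (median 0.66). *Sparcl1*, the synapse-promoting hevin, rose by 1.27 ± 0.22 from 735 to 1788 CPM, *Bcan*, the proteoglycan brevican, by 2.42 ± 0.27 and *Cspg5* by 2.90 ± 0.21. The adhesion genes *Lsamp* (-1.09 ± 0.19) and *Nlgn1* (-1.36 ± 0.17) were lower. Of 23 transcription factors, 8 were higher and 8 lower (median 0.08). With 10 or more marker UMIs 10 were higher and 3 lower (median 0.30), and under a 0.5% mitochondrial share 1 of 17 was higher and 7 were lower (median -0.46). *Hes5*, a Notch target, had a difference of 5.33 ± 0.64, with no UMI in 3 of the 4 WT libraries, and *Id2* rose by 1.83 ± 0.26, whereas *Zbtb20*, *Nfib*, *Sox6* and *Glis3* were lower, by 0.83 to 1.53 on the log2 scale. *Sox6* was not called with 10 or more marker UMIs (-0.47 ± 0.23, adjusted p = 0.10). Of 15 genes of glycogen, glycolysis and lactate, 13 were higher and none lower (median 1.91), as in *Prox1* nuclei with 14 of 14 (median 2.23).

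Of the neuregulin, ErbB and protease genes, 10 of 20 were tested, 1 was higher and 4 were lower (median -0.53). *Nrg1*, the gene that carries V321L, stood at 412, 561, 783 and 529 CPM in WT and at 287, 316, 807 and 156 CPM in V321L mice. V321L mouse M1 was the highest of all 8, and the difference did not pass the test (-0.55 ± 0.35, adjusted p = 0.21). In nuclei with 10 or more marker UMIs it was -1.26 ± 0.20 (adjusted p = 7.4e-05). The substitution is not a deletion, so the level of *Nrg1* does not check the genotype labels. *Erbb4*, its receptor, stood at 470, 1053, 1239 and 698 CPM in WT and at 363, 324, 367 and 550 CPM in V321L mice, with WT mouse F1 inside the V321L range (-1.10 ± 0.26, adjusted p = 0.0023). With 10 or more marker UMIs *Erbb4* was not called (-0.48 ± 0.25, adjusted p = 0.12). *Nrg3* (-1.42 ± 0.24), *Nrg2* (-1.11 ± 0.25) and *Adam10* (-0.50 ± 0.19, adjusted p = 0.035) were also lower, and *Adam10* was not called with 10 or more marker UMIs (-0.17 ± 0.22, adjusted p = 0.55) and near 0 under a 0.5% mitochondrial share (0.022). *Egfr*, at 131 and 86.0 CPM, was not called (-0.56 ± 0.26, adjusted p = 0.083). *Psenen*, the smallest gamma-secretase subunit, was the gene that was higher (5.01 ± 0.59). A fold change of that size means that *Psenen* passed the filter on low counts mainly through V321L mice, so it is not an exact value. No gene of the list was higher with free RNA subtracted (8 tested), at 1000 UMIs (6 tested) or under a 0.5% mitochondrial share (7 tested). Of 7 Notch genes tested, 1 was higher and 4 were lower (median -0.86). Among the lower ones, *Rbpj*, the transcription factor that Notch activates, was at -1.23 ± 0.22 and its coactivator *Maml2* at -1.0 ± 0.18. At 1000 UMIs none of 6 Notch genes was higher and 2 were lower (median -0.07). *Prox1* nuclei moved the same way: none of 7 Notch genes was higher and 5 were lower (median -0.61). Of 12 neuregulin, ErbB and protease genes tested there, 3 were higher and 5 lower (median -0.16, against 0.13 over all genes). The list of 20 summed to 9392 ± 878 CPM in WT and 5643 ± 476 CPM in V321L *Prox1* nuclei. In marker nuclei it summed to 7260 ± 848 and 3964 ± 1144 CPM, with no overlap in either class.

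Markers of other cells moved with the genotype as well. Of 13 GC genes tested, 12 were lower and 1 higher (median -1.56), and the list of 16 summed to 4760, 5279, 5019 and 5599 CPM in the marker nuclei of WT mice F1, F2, M1 and M2 and to 2044, 1799, 1680 and 1960 CPM in those of V321L mice. *Rfx3* was its most abundant gene, and *Prox1* itself was bounded by the rule. In nuclei with 10 or more marker UMIs the list still summed to 5175 ± 415 CPM in WT and 1747 ± 284 CPM in V321L mice. Of 12 pan-neuronal genes, 7 were lower and 2 higher (median -0.54), with *Syt1* the most abundant (-1.0 ± 0.23). The balance turned under a 0.5% mitochondrial share, with 2 higher and 1 lower of 12 (median 0.23), and with library sizes 2 were higher and 4 lower (median -0.19). Of 8 oligodendrocyte precursor genes, 5 were higher and 1 lower (median 1.88), among them *Sox10* (3.49 ± 0.48) and *Cspg4* (2.30 ± 0.40), which passed the filter on low counts mainly through V321L mice. With 10 or more marker UMIs 1 of 4 was higher and 1 lower (median 0.33), and at 1000 UMIs none of 3 was called (median -0.08). The sum of the list, mostly *Tnr*, was 1423 ± 198 CPM in WT and 1568 ± 205 CPM in V321L mice. The 13 vascular genes summed to 35.6 ± 9.86 and 165 ± 13.9 CPM, with *Pdgfrb*, a pericyte gene, alone passing the filter (3.10 ± 0.36). The 12 microglial genes summed to 187 ± 51.8 and 238 ± 107 CPM, the 12 oligodendrocyte genes to 425 ± 187 and 602 ± 56.7 CPM, the 11 genes of GABAergic neurons to 1646 ± 304 and 789 ± 149 CPM, the 8 neuroblast genes to 110 ± 22.9 and 114 ± 33.9 CPM, and the 10 ependymal and choroid plexus genes to 34.2 ± 46.6 and 31.8 ± 15.0 CPM. The part of these cells or of free RNA in the differences of other genes was not tested gene by gene.

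**Figure D4:**
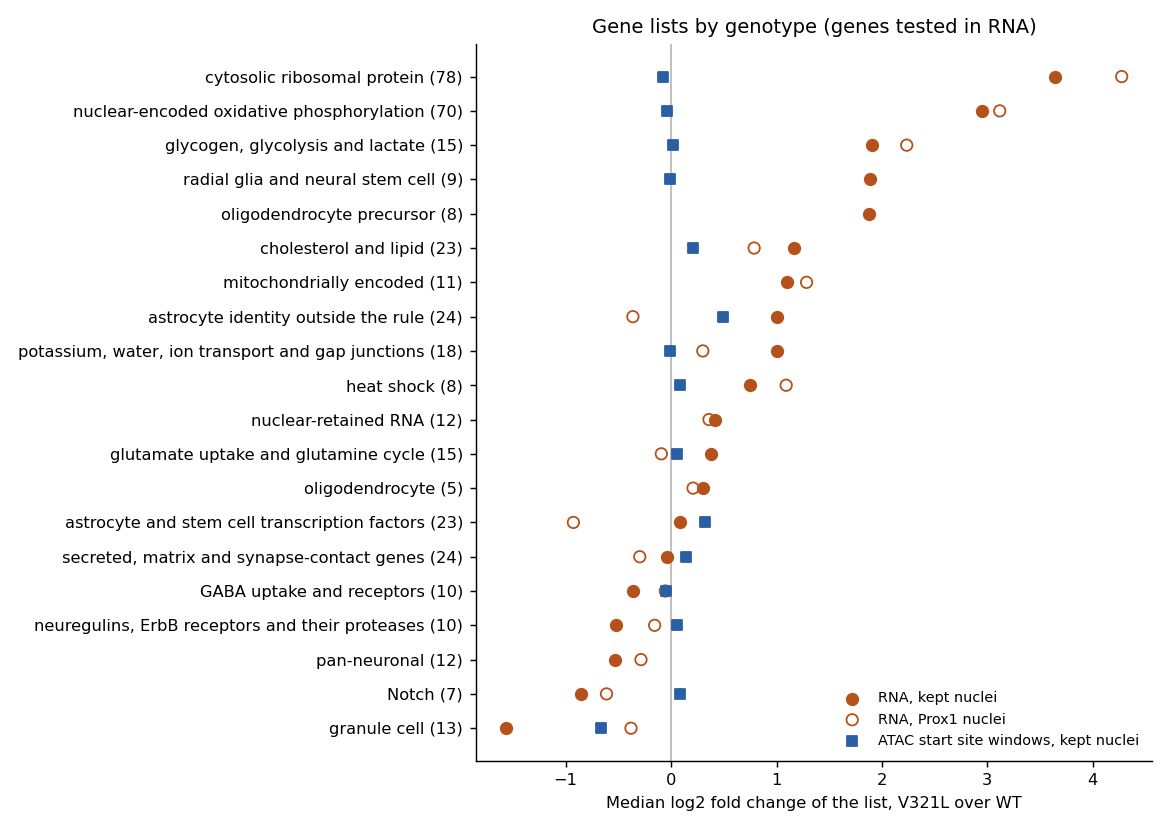
Median log2 fold change (V321L over WT) of each gene list for RNA in marker nuclei, RNA in *Prox1* nuclei and ATAC windows in marker nuclei, with the number of genes tested in brackets; lists with fewer than 5 tested are left out for the latter 2. The ribosomal protein list is at 3.64 in marker and 4.27 in *Prox1* nuclei, the astrocyte list at 1.01 and -0.36, and ATAC medians stay near 0 for the ribosomal protein list (-0.08).

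Much of the difference between the genotypes was shared by both classes of nuclei. All 78 cytosolic ribosomal protein genes tested were higher in V321L marker nuclei (median 3.64), as were all 81 tested in *Prox1* nuclei (median 4.27). Of 70 nuclear-encoded oxidative phosphorylation genes 66 were higher (median 2.95), and 73 of 77 in *Prox1* nuclei (median 3.12). After subtraction of free RNA no ribosomal protein gene had counts enough in marker nuclei for the test, and of 10 oxidative phosphorylation genes that did 5 were higher and none lower (median 0.69). *Malat1*, a long RNA retained in the nucleus, stood between 11232 and 12861 CPM in WT and between 39590 and 42615 CPM in V321L mice (1.76 ± 0.18), and was at 1.85 in *Prox1* nuclei. *Gm42418*, a transcript that overlaps ribosomal RNA repeats, ran from between 7378 and 17280 CPM in WT to between 288 and 402 CPM in V321L mice (-5.17 ± 0.28), and was at -4.81 in *Prox1* nuclei. The largest rises by the naming rule were of *Timm13* and *Coa3*, mitochondrial assembly genes with no UMI in WT and 82 and 80 UMIs in V321L mice, at least 23.9-fold and 23.3-fold higher against a floor of 3 counts over the WT group. *Ndufs7*, *Rps10*, *Id3*, *Fkbp2* and *Vkorc1* were also among them. For *Ndufs7* the UMIs were 2 and 197, a ratio of 86.2 after division by the total UMIs (95% counting interval 23.5 to 716). The largest falls after *Gm42418* were of *Gm32647*, *4930532I03Rik*, *Ccdc152*, *AY036118*, *Itgbl1*, *4930555F03Rik* and *A230004M16Rik*.

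Differences also followed the length of the gene. The median log2 fold change was 2.34 for the 756 tested genes that span under 10 kb, of which 624 were higher and 19 lower, and -0.91 for the 506 genes of 300 kb or more, of which 6 were higher and 359 lower. Between them it was 0.71 (10 to 30 kb), -0.14 (30 to 100 kb) and -0.54 (100 to 300 kb). Some short genes passed the filter on low counts only through V321L mice, such as *Timm13* (1.52 kb) and *Coa3* (0.979 kb), without a UMI in WT. How much of this balance the filter set was not tested. Among the genes above, *Apoe* spans 5.07 kb, *Sox2* 2.47 kb and *Id3* 1.57 kb, whereas *Slc4a4* spans 446 kb, *Nfia* 541 kb and *Nrg3* 1108 kb. *Slc1a2* and *Cldn10*, at 133 and 86.7 kb, are of middle length. Spearman's rho of span and fold change over 6683 genes was -0.67, across genes that are not independent and share the same libraries, and 0.10 for the difference between the classes described next. How far gene length bears on a single gene was not tested. Of the 1760 higher genes 971 could be tested with free RNA subtracted and 914 of them were still called, and of the 1689 lower genes 945 of 1603. Under a 0.5% mitochondrial share these counts were 505 of 576 and 469 of 1437. The genotype and what else differed between the libraries cannot be told apart in this comparison.

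The effect of genotype in marker nuclei was set against that in *Prox1* nuclei of the same mice. The classes did not share all library differences: free RNA made up 21.9% ± 4.53 of the RNA of *Prox1* nuclei in WT against 13.3% ± 3.68 in V321L mice (two-sided exact test, p = 0.0571) and 22.9% ± 3.71 and 22.3% ± 6.95 of that of marker nuclei, and the median depth was 1848 UMIs higher in V321L mice in *Prox1* nuclei and 406 UMIs higher in marker nuclei. With free RNA subtracted 3 genes had a more positive and 30 a more negative effect in marker nuclei. Of 9264 genes tested for this difference, 58 (0.626%) had a more positive and 121 (1.31%) a more negative effect in marker nuclei at an adjusted p under 0.05 (1.93% in all), and 1101 an unadjusted p under 0.05. With nuclei thinned to 500 UMIs 4 were more positive and 71 more negative, of which 2 and 47 were among the 58 and 121. DESeq2 gave 31 and 67. Among the 58, 18 were higher and 10 lower in V321L marker nuclei, and 34 of the 40 that could be tested were lower in V321L *Prox1* nuclei. *Sox2ot*, the long noncoding transcript that overlaps *Sox2*, is an example: it was at 0.00 in marker nuclei and lower in V321L *Prox1* nuclei (-2.64), a difference of 2.61 ± 0.34 (adjusted p = 5.2e-05). *Ntm*, an adhesion molecule, was at -0.31 in marker and -2.15 in *Prox1* nuclei (difference 1.80 ± 0.28). *Npas3*, a transcription factor of astrocytes, was at -0.51 and -1.52 (difference 0.99 ± 0.26). With free RNA subtracted *Sox2ot* was called and *Ntm* (1.37 ± 0.47) and *Npas3* (0.70 ± 0.32) were not, and against all other nuclei none of these 3 was called. Whether a low level in *Prox1* nuclei bears on the size of such a fall was not tested.

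The lists held few genes with a more positive effect of genotype in marker than in *Prox1* nuclei. Of 24 secreted, matrix and synapse-contact genes 4 passed, the most of any list, among them *Ntm*, *Mertk* and *Ctnnd2*, a catenin of synapses (0.72 ± 0.17, adjusted p = 0.013), which was at -0.47 in marker and -1.21 in *Prox1* nuclei. Of the 25 genes of the astrocyte list tested, 1 passed, *Ntsr2*, with a difference of 1.99 ± 0.53 (adjusted p = 0.039). Of 24 cholesterol and lipid genes 1 passed, *Msmo1* (2.17 ± 0.44, adjusted p = 0.0051), and of 18 genes of ion transport and junctions 2 passed, *Hepacam* (2.70 ± 0.62) and *Clcn2*, a chloride channel (2.31 ± 0.60). For *Slc7a11*, the cystine-glutamate exchanger, the difference between the classes was 2.58 ± 0.67, and for *Mertk*, a phagocytic receptor, 4.28 ± 0.88 (adjusted p = 0.0055). In marker nuclei themselves *Slc7a11* rose by 0.66 ± 0.22 and *Mertk* was not called (0.52 ± 0.24, adjusted p = 0.081), so most of these 2 differences came from *Prox1* nuclei, where the level of *Slc7a11* was 4.21 CPM in WT and 1.09 CPM in V321L mice and that of *Mertk* 4.16 and 0.185 CPM. With free RNA subtracted none of *Ntsr2*, *Msmo1*, *Hepacam*, *Clcn2*, *Slc7a11* and *Mertk* was called. The differences were then 2.82 ± 0.80 for *Clcn2*, 3.18 ± 1.65 for *Hepacam*, 3.08 ± 1.20 for *Mertk* and 0.54 ± 3.09 for *Msmo1*, and that of *Ntsr2* could not be estimated, so errors were larger and the lost calls do not show that the effects were absent. Against all other nuclei in place of *Prox1* nuclei, *Ntsr2* and *Msmo1* were called and *Hepacam*, *Clcn2*, *Slc7a11* and *Mertk* were not. The sign of *Slc7a11* turned with free RNA subtracted (-0.91 ± 0.90) and that of *Mertk* against all other nuclei (-0.43 ± 0.21). None of 10 radial glia genes and none of 14 neuregulin pathway genes passed. *Apoe*, at 3.53 in marker and 2.73 in *Prox1* nuclei, did not pass.

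On the other side, 7 of 16 GC genes had a more negative effect in marker nuclei (median difference of the list -1.04, against -0.04 over all genes). *Synpr*, a synaptic vesicle protein abundant in GCs, was at -2.70 in marker and -0.93 in *Prox1* nuclei (difference -1.78 ± 0.27, adjusted p = 0.00012). *Ntng1*, a netrin of mature GCs, was at -1.76 and -0.16, *Trpc6* at -2.09 and -0.37, *Stxbp6* at -1.88 and -0.62 and *C1ql3* at -1.41 and 0.35. These are transcripts of neurons that were measured in marker nuclei, and the summed GC list in marker nuclei was 5164 CPM in WT and 1871 CPM in V321L mice as given above. *Adarb2*, a marker of GABAergic interneurons, was at -1.90 and -0.91. With free RNA subtracted from both classes, 3 genes were more positive and 30 more negative. Only 3 of the 58 more positive and 19 of the 121 more negative genes were among them. *Sox2ot* and *Synpr* were among those still called. The counts also fell to 31 and 69 without WT mouse F2 and to 24 and 66 without WT mouse M2, and 76 genes were more negative without WT mouse M1 or without V321L mouse F2.

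**Figure D5:**
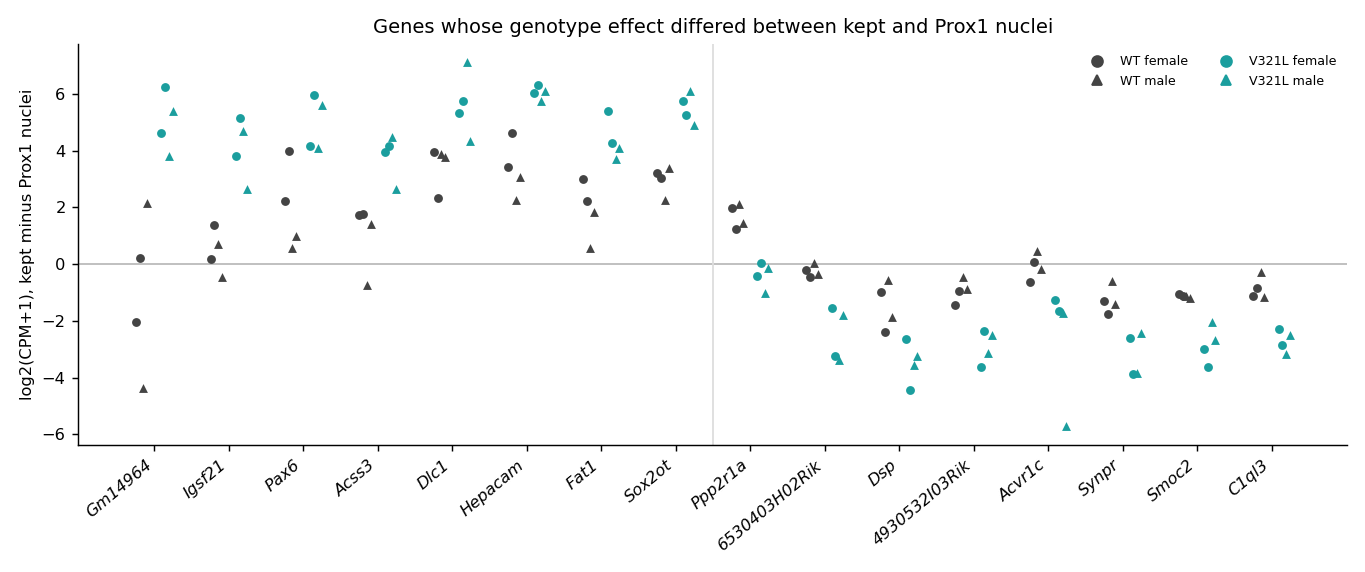
Difference between marker and *Prox1* nuclei in log2(CPM + 1) for the 16 genes named by rule, 1 point per mouse, WT and V321L side by side. The V321L points lie above the WT points for the 8 genes on the left, among them *Sox2ot*, and below them for the 8 on the right, among them *Synpr*.

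Among the windows that could be tested, far fewer differed in accessibility between the genotypes than genes did in RNA. Windows were used only where a peak was called in all 8 libraries, 11746 of the 18000 with a peak in any library. A window without a peak in some libraries, such as those of 1 genotype, was therefore not tested, and the RNA test had no such limit. Of 10829 windows in marker nuclei, 2 (0.0185%) were more and 8 (0.0739%) less accessible in V321L mice at an adjusted p under 0.05 (0.0923% in all), 869 had an unadjusted p under 0.05, and 472 (4.36%) did not overlap. Of the 1412 genes that were higher in RNA and tested in both, none was called more accessible and 1 less, and the median of their windows was 0.00 (quartiles -0.18 and 0.20) beside an RNA median of 1.63. Of the 1155 genes lower in RNA, none was called more accessible and 2 less (median -0.01, beside -0.92 in RNA). The 81 windows of ribosomal protein genes had a median of -0.08 and none was called. Medians were 0.49 for 6 astrocyte, 0.32 for 9 transcription factor and 0.21 for 24 cholesterol and lipid windows, with none called. For 8 GC windows the median was -0.66, with 1 less accessible, and for 8 radial glia windows it was -0.01, with none called. The ATAC counts of 1 mouse's marker nuclei summed to between 264177 and 1096292, and a window's counts are correspondingly low, so that a small difference was not detectable at this depth.

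The windows that were called belonged to few genes. With 10 or more marker UMIs, or with nuclei thinned to 1000 ATAC counts, none was called more and 1 less accessible. The windows below are those of the main test. *Marf1* and *Nde1* share 1 window, which held 47.8 ± 16.3 CPM in WT and 118 ± 19.6 CPM in V321L mice (1.27 ± 0.28, adjusted p = 0.036). *C1ql3* held 56.0 ± 18.3 and 8.93 ± 6.65 CPM (-2.42 ± 0.49, adjusted p = 0.029), the 1 of these genes whose RNA was also in a list above and lower. *Egr4*, an activity-induced zinc finger gene, held 79.6 ± 27.6 and 22.9 ± 8.95 CPM (-1.80 ± 0.37), *Gast*, gastrin, 46.3 ± 16.6 and 4.54 ± 3.57 CPM (-3.06 ± 0.56), *Fgf14*, a modulator of neuronal sodium channels, 64.9 ± 22.4 and 16.9 ± 5.06 CPM (-1.94 ± 0.42) and *Faim2*, an inhibitor of apoptosis in neurons, 101 ± 26.6 and 39.4 ± 3.29 CPM (-1.35 ± 0.29). Leaving out 1 mouse left between 0 and 6 windows more and between 0 and 35 less accessible. No window was called without WT mouse M2 or without V321L mouse F1, 1 without V321L mouse M1 and 2 without WT mouse M1, whereas 16 were less accessible without WT mouse F1, 4 more accessible without V321L mouse F2, and 6 more and 35 less without V321L mouse M2.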

How the data were processed

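Single-nucleus RNA and ATAC libraries of 8 mice were used. Per the labels and the methods of the study, the authors made them with cellranger-arc 2.0.2 on mm10 and deposited unfiltered matrices of raw counts (RNA UMIs per gene and ATAC counts per peak, with peaks called in each library). Cell Ranger, Seurat and Signac are also named in the submitters' processing notes. The files held between 4326426 and 14624265 RNA UMIs per WT library and between 15505354 and 23582057 per V321L library. Whether the mice of a group came from separate litters is not given in the sources used here.

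Nuclei were barcodes with more than 500 and at most 8916 UMIs, more than 250 and at most 3307 genes, less than 2.787% mitochondrial UMIs and 500 or more ATAC counts. Marker and *Prox1* nuclei were chosen by the rules in the text. The members, gene lists and tests were chosen with earlier results of these data known. Doublets were scored with scanpy 1.11.5 and kept. UMIs were summed per mouse and class and tested with edgeR 4.0.16 (R 4.3.3; filterByExpr, TMM, quasi-likelihood test, Benjamini-Hochberg adjustment). Genotype was tested over 4 and 4 mice, its difference between classes as an interaction with mouse as a block, and ATAC classes within mice, after summing peaks within 1 kb of each gene start given in the deposited files. Gene starts without a peak in every library were left out of the ATAC tests. The tests were checked on simulated data. Shares were compared by exact two-sided permutation over the 70 assignments of mice (scipy 1.17.1). Counting intervals and floors cover counting error only. DESeq2 1.42.0, library sizes, other filters, thinning, free RNA subtraction and leaving out mice were tried as alternatives.

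Named genes were the 8 largest changes in each direction (5 for ATAC by genotype) that passed an adjusted p of 0.05 without overlap between the groups, and whose mean was 20 CPM or more, and the 4 most abundant genes of each list. The promoters printed, of *Cmtm5* and *Sash1*, belong to windows among those with the largest differences between the classes, and both had an entry in RefSeq. Of 11120 windows 8378 matched an entry, too few (75.3%) for a comparison of motifs over sets. Some genes that these rules name are not reported here.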

Additional observations from a re-analysis of the deposited data

Results flagged for a closer look

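The marker nuclei of WT mouse M1 had a pan-neuronal sum of 11896 CPM, far from the other 3 WT mice at 9307 to 9685 CPM. It was the 1 value that stood out among 16 groups examined, where chance gives about 1 in 20. The genotype effects on 16 genes differed between marker and *Prox1* nuclei by the interaction test, on the log2 scale. They were more positive in marker nuclei for *Gm14964* (5.22), *Igsf21* (4.20), *Pax6* (3.97), *Acss3* (2.94), *Dlc1* (2.77), *Hepacam* (2.70), *Fat1* (2.69) and *Sox2ot* (2.61). *Pax6* encodes a transcription factor of radial glia and *Fat1* an atypical cadherin. They were more negative for *Ppp2r1a* (-2.12), *6530403H02Rik* (-2.0), *Dsp* (-1.99), *4930532I03Rik* (-1.95), *Acvr1c* (-1.86), *Synpr* (-1.78), *Smoc2* (-1.77) and *C1ql3* (-1.74). *Dsp*, desmoplakin, and *C1ql3* belong to the GC list. In each of the 16 genes the difference between the classes in the 4 V321L mice did not overlap with that in the 4 WT mice, which the naming rule required. With free RNA subtracted, *Sox2ot*, *Synpr*, *6530403H02Rik* and *Smoc2* were still called.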

How the results depend on the processing

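In marker nuclei 2466 genes were higher and 931 lower with library sizes, 984 lower when these left out ribosomal and mitochondrial genes, 1121 lower with UMIs of at least 2 marker genes, and 3260 higher with at least 1 count in 2 samples. Higher and lower genes numbered 1056 and 919 with 10 or more marker UMIs, 666 and 479 under a 0.5% mitochondrial share, 426 and 311 at 500 UMIs, 818 and 625 at 1000 UMIs, 619 and 580 with 81 nuclei per mouse, and 1139 and 949 with free RNA subtracted. Fewer genes could be tested in most of these. The genotype effect differed between classes, more positive and more negative, for 31 and 67 genes with DESeq2, 4 and 71 at 500 UMIs and 3 and 30 with free RNA subtracted, for 101 more positive against all other nuclei, and for 242 more negative with 10 or more marker UMIs. *Sox2ot*, *Fat1*, *Hepacam* and *Igsf21* were not called against all other nuclei. Between the classes 162 windows were more and 119 less accessible at 1000 ATAC counts. Between genotypes 2 windows were less accessible within 250 bases, and 0 more and 1 less at 1000 ATAC counts and with 10 or more marker UMIs. The share of marker nuclei differed by 4.23 points at 1000 UMIs. Leaving out 1 mouse gave 1558 to 2261 higher and 1253 to 1989 lower genes, 24 to 71 more positive and 66 to 146 more negative genes, 950 to 1356 more and 875 to 1256 less accessible windows between classes, 0 to 6 and 0 to 35 between genotypes, and differences of 1.60 to 3.96 points in the share of marker nuclei and 6.50 to 9.20 points in that with a radial glia UMI.

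Fold changes that turned their sign were those of *Adam10* (0.022) and *Gabbr2* (0.065) under a 0.5% mitochondrial share, of *Dtna* (0.59), *Gabrb1* (0.087), *Notch2* (0.16) and *Npas3* (0.26) at 1000 UMIs, and of *Meg3* (-0.26) with 10 or more marker UMIs. The cause was not tested. Of 2017 values for 123 named genes by genotype, 1818 kept their direction and side of the threshold, 148 were no longer called, 44 became called and 7 turned. All 72 values for windows between the classes kept theirs. Of 110 values for 16 genes whose genotype effect differed between classes, 29 were no longer called, and of 32 for 7 windows by genotype, 7. Leaving out 1 mouse ended the call in 26 of 128 values for these genes and in 32 of 56 for these windows. Replicate numbers did not pair the mice, with correlations of same-numbered deviations from -0.046 to 0.098, and a replicate block gave 1723 higher and 1684 lower genes and 2 and 8 windows. The alternatives with 10 or more marker UMIs or UMIs of at least 2 marker genes were chosen after seeing the data.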

Other observations

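Other gene groups were also summed in marker nuclei. The 20 immediate early genes came to 126 ± 74.4 CPM in WT and 296 ± 60.5 CPM in V321L mice, with no overlap; 2 could be tested, of which 1 was higher and none lower. With 10 or more marker UMIs the sums overlapped. Of 8 heat shock genes tested, 4 were higher and none lower (median 0.75, against -0.02 over all genes), and the list summed to 679 ± 149 CPM in WT and 1504 ± 599 CPM in V321L mice, with overlap. With free RNA subtracted 1 of these genes could be tested, and no mitochondrially encoded gene could. That heat shock gene was at 1.89 and was not called, so the lost call does not show that the rise was absent. The mitochondrially encoded genes came to 3559 ± 942 and 9695 ± 2668 CPM, with no overlap. Of 11 tested 6 were higher and 2 lower (median 1.09), and 8 of 12 were higher in *Prox1* nuclei (median 1.28). Nuclear-retained RNAs came to 25723 ± 5329 and 47105 ± 1280 CPM, with no overlap. Of 12 tested 4 were higher and 3 lower (median 0.41), whereas with 10 or more marker UMIs 1 of 9 was higher and 5 were lower (median -0.62).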
